A study of Mus musculus with 18 samples.

Results

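Mouse embryonic stem cells labelled Pcgf-4KO, which carry null genotypes for Pcgf1, Pcgf3, Pcgf5 and Pcgf6, were compared with embryonic stem cells labelled Ring1b-KO. The libraries were taken by their genotype labels, 3 for each line, so 6 of the 18 libraries of the series stand in the comparison and no measured value chose them. By their labels the Pcgf-4KO cells keep Ring1a, Ring1b, Pcgf2 and Pcgf4, and the Ring1b-KO cells keep Ring1a and all Pcgf proteins. The remaining 12 libraries are WT, Ring1a-KO, Ring1a/b-dKO (Ring1a and Ring1b both lost) and Pcgf-6KO (all Pcgf genes lost). They helped to estimate the spread between libraries, and WT and Ring1a/b-dKO levels are given where they place a value. Cells were lifted with trypsin, lysed in Trizol and made into TruSeq RNA libraries. The labels give no medium, clone, method of deletion, passage or batch, so a genotype cannot be told apart from the clone or culture that carried it, and the p-values measure the spread between these libraries only.

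Polycomb repressive complex 1 (PRC1) is a ubiquitin ligase that marks histone H2A and holds many developmental regulators in a repressed state before differentiation. The catalytic core is Ring1a (gene Ring1) or Ring1b (gene Rnf2) paired with 1 Pcgf protein. Complexes with Pcgf2 or Pcgf4 (gene Bmi1) also hold Cbx and Phc proteins and are called canonical, while those with Pcgf1, Pcgf3, Pcgf5 or Pcgf6 hold Rybp or Yaf2 and are called variant. Pcgf6 complexes are known for silencing germline genes, and Cbx-containing complexes for binding the histone mark made by PRC2. By the labels, the comparison sets cells without the 4 variant Pcgf genes against cells without one of the 2 catalytic subunits.

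Values are TPM (a share of all transcripts in a library that corrects for transcript length, scaled to a fixed total), and the read depth behind them is unknown. The 3 libraries of a line lay 0.424 apart on average in Pcgf-4KO and 0.455 apart in Ring1b-KO (root mean square log2 distance over the genes tested), against 0.787 between the lines. By the same measure Pcgf-4KO lay 0.597 from Ring1a/b-dKO and 0.951 from WT, and Ring1b-KO lay 0.815 from Ring1a/b-dKO and 0.799 from WT. Genes at 1 TPM or more numbered 15289 to 15368 in Pcgf-4KO and 15528 to 15668 in Ring1b-KO libraries. Mitochondrial transcripts took 5.98 to 6.19% of the TPM in Pcgf-4KO and 6.96 to 7.34% in Ring1b-KO, and cytosolic ribosomal protein genes took 15.6 to 15.9% in Pcgf-4KO and 17.8 to 18.6% in Ring1b-KO. Pou5f1 and Sox2, which define embryonic stem cells, stood at 616 to 627 TPM and 168 to 176 TPM in Pcgf-4KO and at 989 to 1040 TPM and 205 to 223 TPM in Ring1b-KO. Of 19 fibroblast markers, the 12 tested summed to 154 to 157 TPM in Pcgf-4KO, 265 to 273 TPM in Ring1b-KO and 371 to 393 TPM in WT, with 6 higher and 4 lower in Pcgf-4KO. The other 7 did not pass the filter on low values, with Fap at 0 in all 6 libraries and Col1a2, Col3a1, Dcn, Lum, Postn and Mgp at 0.83 TPM or less.

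Of 17842 genes tested, 10508 were called at an adjusted p under 0.05 (limma on log2(TPM + 1), Benjamini-Hochberg adjustment, two-sided), which is 58.9%. In Pcgf-4KO 6673 genes were higher (37.4%) and 3835 lower (21.5%) than in Ring1b-KO. A change of 2-fold or more on that scale was called for 1143 genes on the higher side (6.41%) and 801 on the lower (4.49%). The 3 libraries of one line all lay above those of the other for 7414 genes higher in Pcgf-4KO (41.6%) and 4446 lower (24.9%). The median log2 difference over all genes tested was 0.11. With the libraries rescaled by median ratios it was -0.02, and 48.7% of the calls were then higher in place of 63.5%. Every count below has to be read against these shares, and small differences against that shift.

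**Figure D1:**
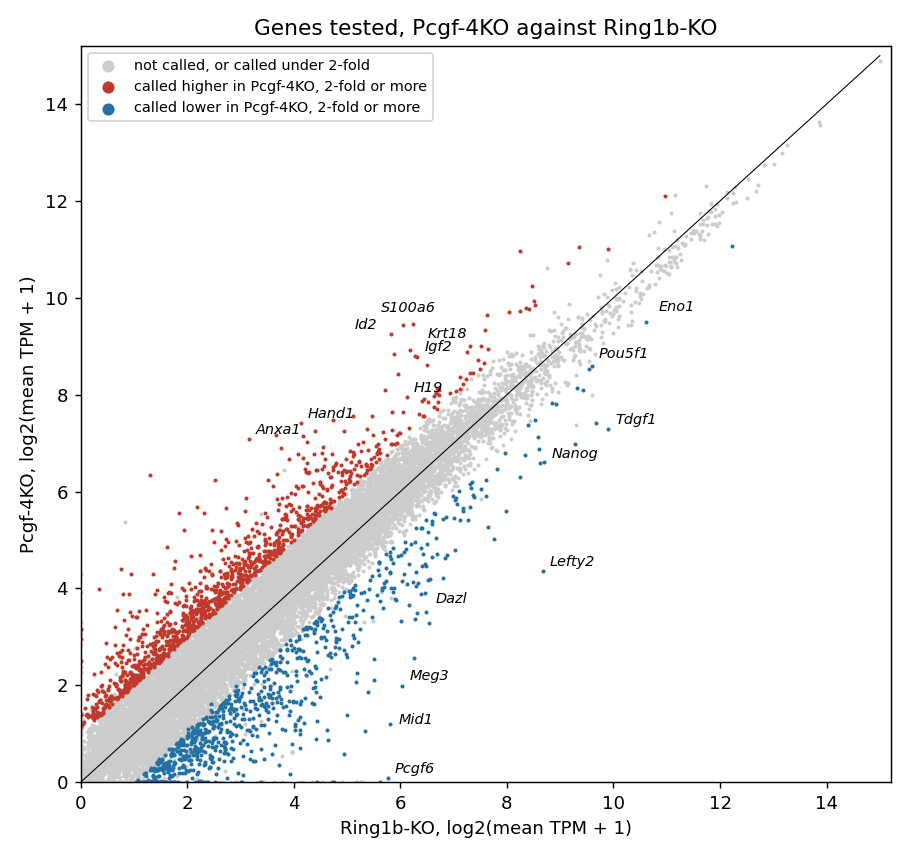
Mean level of each of the 17842 genes tested, as log2(mean TPM + 1), in Pcgf-4KO (vertical axis) and Ring1b-KO (horizontal axis), 3 libraries a line. Red points are the 1143 genes called higher and blue points the 801 called lower in Pcgf-4KO at 2-fold or more, and the line marks equal levels.

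Transcripts of the targeted genes were checked first. Pcgf6 (gene at chr19:47033617-47050906, minus strand, GRCm38) was at 0.07, 0 and 0.1 TPM in Pcgf-4KO, against 52.99, 51.96 and 54.81 TPM in Ring1b-KO, a log2 difference of -5.68 ± 0.06 (SE, adjusted p = 6.4e-18). Pcgf1 was at 2.58, 0.28 and 0.82 TPM in Pcgf-4KO and 16.2, 15.6 and 14.2 TPM in Ring1b-KO (-3.01 ± 0.27). Both were nearly lost in Pcgf-4KO, with Pcgf1 less evenly so among its libraries.

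Pcgf3 and Pcgf5 RNA was still present in Pcgf-4KO. Pcgf3 was at 11.8, 12.3 and 11.3 TPM there and at 17.1, 19.4 and 16.1 TPM in Ring1b-KO (log2 difference -0.53 ± 0.11), with a WT mean of 13.2 TPM. Pcgf5 was at 13.2, 15.7 and 14.7 TPM in Pcgf-4KO and 23.0, 19.6 and 21.0 TPM in Ring1b-KO (-0.52 ± 0.08), with a WT mean of 9.55 TPM. Both genes were lower in every Pcgf-4KO library than in any Ring1b-KO library, but a gene-level TPM cannot show whether part of a transcript was deleted, so it does not check the Pcgf3 and Pcgf5 labels.

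The same limit holds for Rnf2, the gene of Ring1b. Its level was 88.3, 91.0 and 98.9 TPM in Pcgf-4KO and 47.8, 52.98 and 47.4 TPM in Ring1b-KO (log2 difference 0.90 ± 0.08, adjusted p = 1.8e-07). Ring1b-KO differed from WT, where Rnf2 averaged 71.3 TPM, by -0.52 ± 0.08 (adjusted p = 6.3e-05, in a comparison that called 51.8% of all genes). Pcgf-4KO differed from the same WT libraries by 0.38 ± 0.08 (adjusted p = 0.00072, with 65.0% of all genes called). Over all genes tested the median log2 difference from WT was 0.25 in Pcgf-4KO and 0.13 in Ring1b-KO. So Rnf2 RNA was lowered but not lost in Ring1b-KO. In Pcgf-4KO it was above WT, where genes at large were higher too.

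The partners that both lines keep did not pass the test between them. Ring1, which codes for the other catalytic subunit, was at 8.86, 10.7 and 9.57 TPM in Pcgf-4KO and 8.55, 11.9 and 9.17 TPM in Ring1b-KO, a log2 difference of -0.01 ± 0.28 that did not pass the test. Pcgf2 (0.04 ± 0.07) and Bmi1 (0.16 ± 0.19) did not pass it either. Bmi1 averaged 11.4 TPM in Pcgf-4KO and 9.99 TPM in Ring1b-KO, with 1.60 TPM in WT, so both lines held far more Bmi1 RNA than WT.

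**Figure D2:**
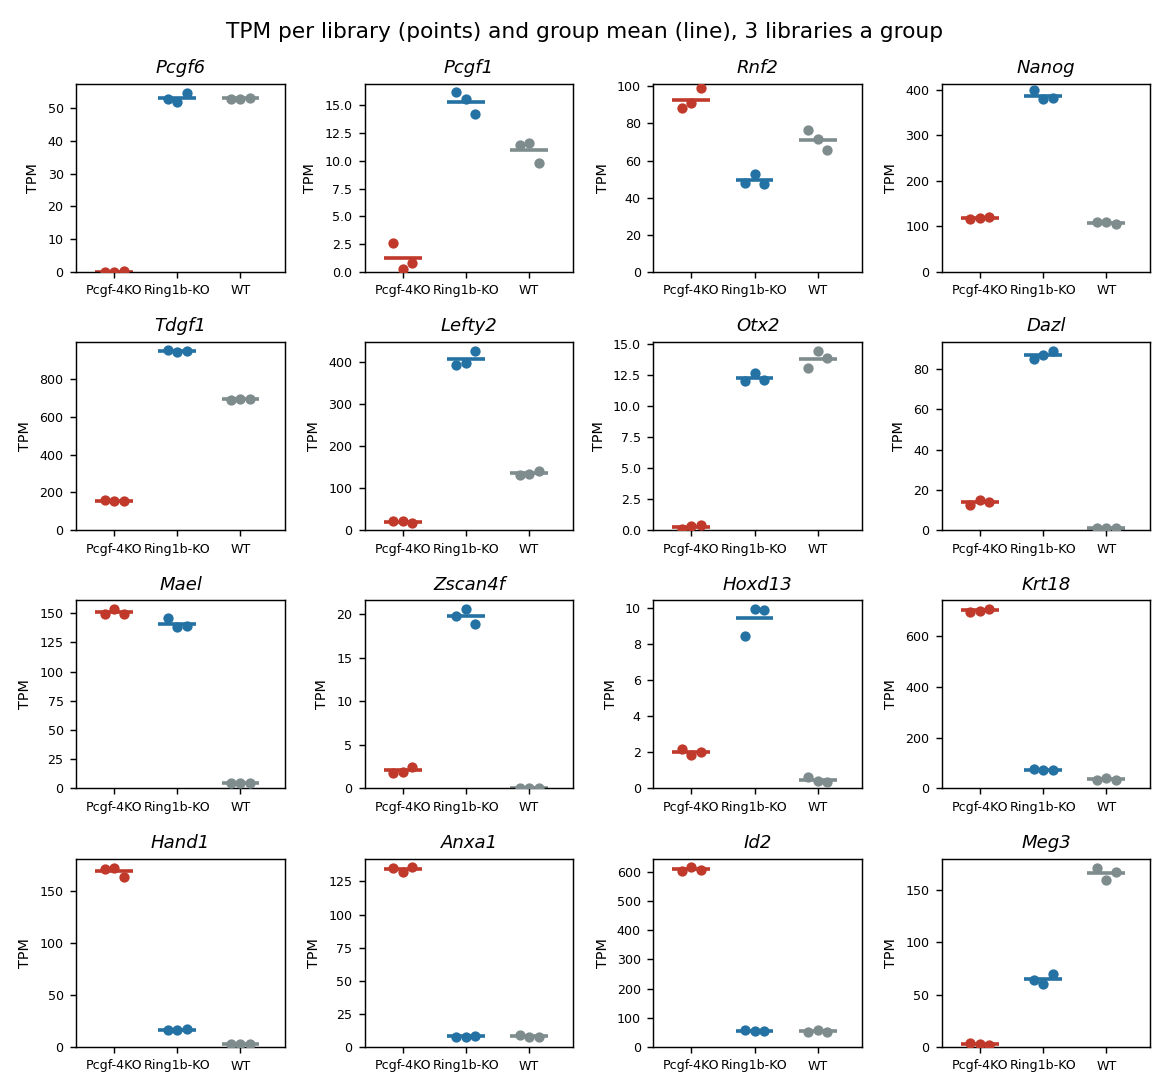
TPM of 16 genes in each library (points) with the mean of 3 (line), Pcgf-4KO in red, Ring1b-KO in blue and WT in grey, each panel with its own axis from 0. Pcgf6, Otx2 and Meg3 lie near 0 in Pcgf-4KO, Krt18, Hand1, Anxa1 and Id2 are high in Pcgf-4KO alone of the 3 lines, and Nanog, Lefty2, Dazl and Zscan4f are highest in Ring1b-KO.

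Canonical PRC1 genes tended to stand higher in Pcgf-4KO: of 10 tested, 6 rose, 1 fell and 3 did not pass, with a median log2 difference of 0.41 against 0.11 over all genes. With median ratio scaling 5 rose and 2 fell. Phc2, which polymerises and so holds canonical complexes together, differed by 0.97 ± 0.08, and Cbx7, the main Cbx protein of embryonic stem cells, by 0.54 ± 0.10 with 174 to 182 TPM in Pcgf-4KO and 116 to 131 TPM in Ring1b-KO. Cbx7 averaged 175 TPM in WT, so Pcgf-4KO was level with WT and Ring1b-KO below it. The Polycomb adaptor gene Scml2 was the member that fell (-0.58 ± 0.21, adjusted p = 0.028), and that call was lost without Pcgf-4KO replicate 1 or 3 or without Ring1b-KO replicate 2 or 3 (-0.43 to -0.60). Cbx8 (0.33 ± 0.17) did not pass the test. Cbx8 lies on chromosome 11, whose genes as a whole were higher in Pcgf-4KO (values below).

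Accessory subunits of variant PRC1 were mixed, with 10 of 23 higher, 5 lower and 8 not called. With median ratio scaling the split was 6 higher and 7 lower. Bcor, the corepressor of the Pcgf1 complex, was at 86.4, 88.8 and 85.4 TPM in Pcgf-4KO and 21.5, 22.5 and 22.5 TPM in Ring1b-KO (1.92 ± 0.09), with 14.3 TPM in WT. Kdm2b, which brings the Pcgf1 complex to CpG islands, went the other way, at 44.0, 46.7 and 43.7 TPM in Pcgf-4KO and 69.6, 77.5 and 72.8 TPM in Ring1b-KO (-0.70 ± 0.06). E2f6, a DNA-binding partner of the Pcgf6 complex, was higher by 0.70 ± 0.05 and Auts2, a partner of Pcgf3 and Pcgf5, by 0.86 ± 0.12. Auts2 averaged 9.71 TPM in Pcgf-4KO, 4.89 TPM in Ring1b-KO and 8.54 TPM in WT, so Ring1b-KO was the line away from WT. Rybp (0.13 ± 0.06, adjusted p = 0.083) did not pass the test, but did when only the 6 libraries were fitted (adjusted p = 0.010).

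Of 12 PRC2 genes tested, 4 rose, 4 fell and 4 did not pass. Phf19, an accessory protein that helps PRC2 bind chromatin, was at 13.7, 12.4 and 12.5 TPM in Pcgf-4KO and 6.00, 6.34 and 6.44 TPM in Ring1b-KO (0.94 ± 0.06). It averaged 14.1 TPM in WT, so Ring1b-KO was the line away from WT. The methyltransferase gene Ezh2 fell by 0.34 ± 0.05 on the log2 scale. Suz12 stood at 161 to 175 TPM in Pcgf-4KO and 175 to 178 TPM in Ring1b-KO and did not pass the test, but fell with median ratio scaling (-0.24). Under that scaling 3 members rose and 6 fell.

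Germline and meiosis genes were active in both lines, and between the lines single genes went in either direction. Of 65 listed, 61 were tested, and 23 rose, 17 fell and 21 did not pass, with a median log2 difference of 0.05. Over all genes 37.4% rose and 21.5% fell, so the split was near that of genes at large. With median ratio scaling 18 rose and 24 fell. The summed level of the 61 tested genes was 2252 to 2267 TPM in Pcgf-4KO, 1731 to 1784 TPM in Ring1b-KO and 562 to 573 TPM in WT.

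Many germline promoters hold the E-box CACGTG, which the Mga and Max subunits of the Pcgf6 complex are known to bind. Only windows that hold the E-box are printed here, with the E-box in capitals, and in Hormad1 also the motif GCGGGAA. Such windows are a minority of those of the germline list (shares below). The 5 RefSeq windows that follow (GRCm38.p6, 250 bases before to 50 after the start) are written 5′ to 3′ on the strand of the gene. They belong to Mov10l1 (chr15:88982744-88983043, plus strand) and Tdrd1 (the first of 3 windows, chr19:56825959-56826258, plus strand), which rose, to Sycp1 (chr3:102936051-102936350, minus strand) and Hormad1 (the first of 2 windows, chr3:95559427-95559726, plus strand), which fell, and to Mael (chr1:166238695-166238994, minus strand), which did not pass the test.
Mov10l1: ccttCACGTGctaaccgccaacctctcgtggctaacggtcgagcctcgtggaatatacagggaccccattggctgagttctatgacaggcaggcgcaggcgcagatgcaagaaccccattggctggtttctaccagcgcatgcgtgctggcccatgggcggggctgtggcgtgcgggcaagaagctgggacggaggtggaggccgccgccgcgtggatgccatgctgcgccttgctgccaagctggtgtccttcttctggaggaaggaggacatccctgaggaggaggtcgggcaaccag
Tdrd1: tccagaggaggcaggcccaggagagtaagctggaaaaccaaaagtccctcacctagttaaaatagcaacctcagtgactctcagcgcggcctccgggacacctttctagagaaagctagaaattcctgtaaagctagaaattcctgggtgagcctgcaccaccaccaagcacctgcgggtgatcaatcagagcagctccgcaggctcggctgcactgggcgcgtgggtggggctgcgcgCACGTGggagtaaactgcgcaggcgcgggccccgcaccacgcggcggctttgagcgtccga
Sycp1: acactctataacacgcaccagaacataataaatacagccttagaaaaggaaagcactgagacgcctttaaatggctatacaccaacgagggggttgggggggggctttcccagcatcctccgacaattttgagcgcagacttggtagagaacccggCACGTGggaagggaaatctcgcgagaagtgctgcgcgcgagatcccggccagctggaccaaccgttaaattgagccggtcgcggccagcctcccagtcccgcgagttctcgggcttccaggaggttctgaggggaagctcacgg
Hormad1: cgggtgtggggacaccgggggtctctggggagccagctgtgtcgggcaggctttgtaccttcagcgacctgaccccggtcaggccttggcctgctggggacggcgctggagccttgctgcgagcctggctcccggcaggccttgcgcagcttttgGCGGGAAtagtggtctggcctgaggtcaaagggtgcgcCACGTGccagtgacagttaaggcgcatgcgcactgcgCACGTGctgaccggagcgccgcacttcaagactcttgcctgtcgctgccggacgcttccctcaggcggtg
Mael: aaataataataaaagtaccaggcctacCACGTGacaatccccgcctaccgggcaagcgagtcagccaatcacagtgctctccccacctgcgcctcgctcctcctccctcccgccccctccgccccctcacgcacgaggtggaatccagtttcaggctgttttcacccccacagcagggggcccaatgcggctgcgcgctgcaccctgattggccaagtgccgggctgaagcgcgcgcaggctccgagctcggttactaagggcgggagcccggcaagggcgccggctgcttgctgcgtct

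The E-box begins 246 bases before the start in Mov10l1, 11 before it in Tdrd1, 94 before it in Sycp1, 57 and 20 before it in Hormad1 and 223 before it in Mael. Promoter windows were found for 53 of the 61 tested genes, 66 windows in all, and CACGTG, which reads the same on both strands, stood in 34.9% of them. Among all 32851 windows of the table the share was 7.15%, and it was 22.7% of 22 Hox windows and 15.8% of 19 windows of immediate early genes. Of 21 trophoblast windows 4.76% held it, and of 13 windows of 2-cell-like genes 0. The share was 34.6% for windows of the germline genes that rose (9 of 26), 38.9% for those that fell (7 of 18) and 31.8% for those not called (7 of 22). The E2f6-type motif GCGGGAA, searched on both strands, stood in 25.8% of the germline windows and 4.60% of all windows. The windows of Dazl, Tex101, Mageb4 and Tdrd12 held neither motif. A match describes the letters of a window and does not show that a factor binds there.

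Dazl, which codes for an RNA-binding protein needed for germ cells, showed the largest fall of the germline list. It was at 12.7, 14.8 and 14.2 TPM in Pcgf-4KO and 84.9, 87.0 and 89.0 TPM in Ring1b-KO, a log2 difference of -2.56 ± 0.08 (adjusted p = 9.7e-13), and at 1.09 TPM in WT. Both lines therefore lay above WT, and Ring1b-KO far above Pcgf-4KO. Tdrd12, a piRNA pathway gene, was at 12.4, 11.3 and 9.67 TPM in Pcgf-4KO and 53.7, 47.4 and 48.3 TPM in Ring1b-KO (-2.07 ± 0.08), but at 58.9 TPM in WT, so here Ring1b-KO was near WT and Pcgf-4KO below it. The meiotic chromosome genes Sycp1 (-1.22 ± 0.16) and Hormad1 (-1.03 ± 0.12) were also lower in Pcgf-4KO.

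Tex101, which codes for a surface protein of germ cells, showed the largest rise. It was at 125, 115 and 119 TPM in Pcgf-4KO and 21.11, 22.01 and 23.96 TPM in Ring1b-KO (2.37 ± 0.14), and at 0.66 TPM in WT. The piRNA genes Tdrd1 (1.73 ± 0.11) and Mov10l1 (1.61 ± 0.09) and the X-linked Mageb4 (1.71 ± 0.05) rose as well. Mael, another piRNA gene, was at 150, 154 and 149 TPM in Pcgf-4KO and 146, 139 and 139 TPM in Ring1b-KO (0.09 ± 0.05, adjusted p = 0.15), with 4.65 TPM in WT. It was thus well above WT in both lines and did not pass the test between them, though it did, with the same difference, when only the 6 libraries were fitted (adjusted p = 0.029).

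Genes of the 2-cell-like state, a rare state of embryonic stem cells that resembles the 2-cell embryo, were far lower in Pcgf-4KO. Of 40 listed genes 26 were tested, and 25 fell while 1 did not pass, with a median log2 difference of -1.79. None of the 26 reached a mean of 1 TPM in WT, 9 did in Pcgf-4KO and 24 in Ring1b-KO, so the filter on low values let them in through knockout libraries, and the count is no measure of the whole list. With no filter 31 of 38 fell and the rest did not pass. The summed level of the 26 tested genes was 21.5 to 23.7 TPM in Pcgf-4KO, 141 to 166 TPM in Ring1b-KO and 0.22 to 0.59 TPM in WT.

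Zscan4f, of the Zscan4 family that marks this state, was at 1.81, 1.95 and 2.48 TPM in Pcgf-4KO and 19.9, 20.6 and 18.9 TPM in Ring1b-KO (-2.76 ± 0.11, adjusted p = 1.8e-11). It was at 0.39 TPM in Ring1a/b-dKO and listed at 0 in WT. Zscan4a (-2.70 ± 0.08), Zscan4c (-2.29 ± 0.10) and Tcstv3 (-2.17 ± 0.16) followed it. These genes belong to families of near-identical copies, so how reads were shared among the copies is uncertain, and in bulk RNA a smaller share of cells in the state cannot be told apart from less RNA per cell.

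Hox genes, the classical Polycomb targets that pattern the body axis, were also lower in Pcgf-4KO. Of 39 genes 37 were tested, of which 24 fell, 1 rose and 12 did not pass, with a median log2 difference of -0.59. None of the 37 averaged 1 TPM in WT, while 13 did in Pcgf-4KO and 24 in Ring1b-KO, so they too passed the filter through knockout libraries. With no filter 24 of 39 fell and 1 rose. Summed over the 37 tested genes, Hox RNA was at 35.2 to 37.6 TPM in Pcgf-4KO, 97.2 to 102 TPM in Ring1b-KO and 2.35 to 2.73 TPM in WT.

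All 4 clusters showed it. The middle library of 3 had 11.3 TPM of Hoxa RNA in Pcgf-4KO and 35.6 TPM in Ring1b-KO, and 8.79 TPM of Hoxb RNA in Pcgf-4KO and 19.8 TPM in Ring1b-KO. Hoxc RNA was at 8.16 TPM in Pcgf-4KO and 20.7 TPM in Ring1b-KO, and Hoxd RNA at 8.51 TPM in Pcgf-4KO and 25.6 TPM in Ring1b-KO. In Ring1a/b-dKO the clusters stood at 42.1 to 53.9 TPM by the same measure. Hoxa9 was at 0.26, 0.04 and 0.11 TPM in Pcgf-4KO and 6.09, 5.95 and 8.27 TPM in Ring1b-KO (-2.76 ± 0.17), and Hoxd13 at 2.20, 1.84 and 2.05 TPM in Pcgf-4KO and 8.49, 9.96 and 9.92 TPM in Ring1b-KO (-1.79 ± 0.12). Hoxb9, on chromosome 11, was the member that rose (0.49 ± 0.12), at 2.36, 2.60 and 3.53 TPM in Pcgf-4KO and 1.61, 1.41 and 2.15 TPM in Ring1b-KO. In its own cluster 5 of 10 tested genes fell. With the median shift of each chromosome removed, 1 Hox gene rose and 26 fell.

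**Figure D3:**
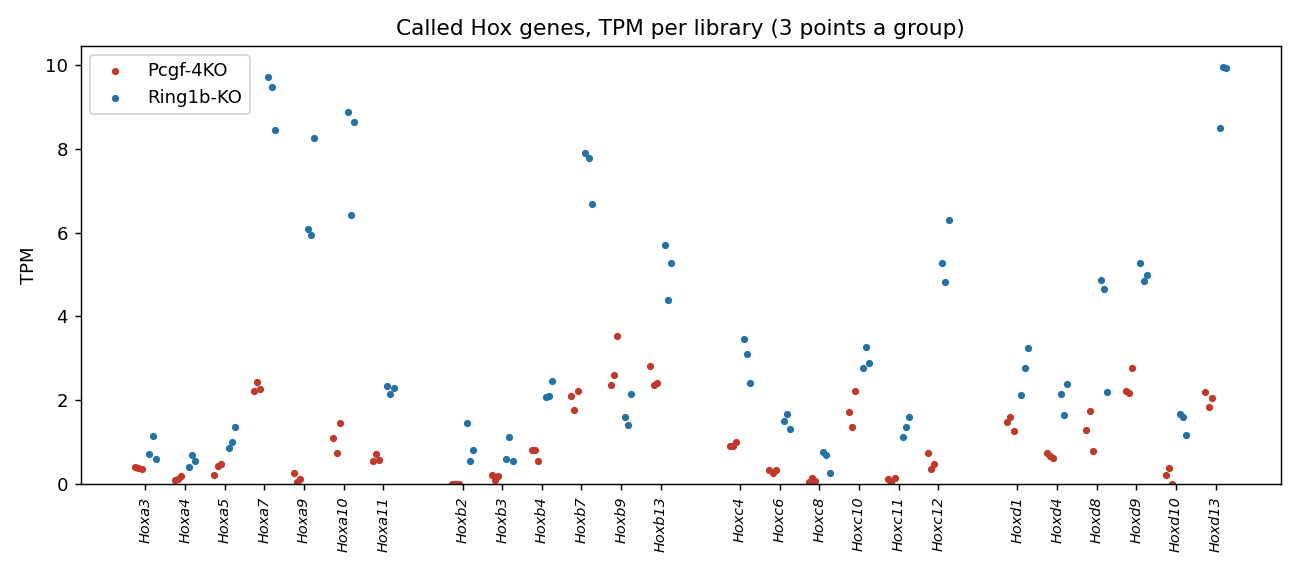
TPM of the 24 Hox genes called lower and the 1 called higher, in each of the 3 Pcgf-4KO (red) and 3 Ring1b-KO (blue) libraries, ordered by cluster and by position number. Ring1b-KO points lie above Pcgf-4KO points for the genes from Hoxa7 to Hoxa11, for Hoxb7, Hoxb13, Hoxc12 and Hoxd13 among others, and below them for Hoxb9.

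Homeobox genes outside the Hox clusters did not follow the Hox genes and split much as genes at large did (37.4% higher, 21.5% lower, median 0.11). Of 95 listed, 75 were tested, of which 27 rose, 13 fell and 35 did not pass, with a median log2 difference of 0.07, and with median ratio scaling 21 rose and 18 fell. Nkx6-2, a neural patterning factor, was at 13.03, 12.39 and 10.71 TPM in Pcgf-4KO and 3.77, 3.86 and 4.32 TPM in Ring1b-KO (1.39 ± 0.11). Msx2 (1.34 ± 0.11), Irx4 (1.30 ± 0.11) and Lmx1b (1.29 ± 0.14) were higher too. The genes named here were picked from the rises. Of the 27 rises 6 reached 2-fold, and of the 13 falls 2 did, where 6.41% and 4.49% of all genes tested did so.

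Trophoblast genes, which mark the placental lineage, stood higher in Pcgf-4KO. Of 28 listed, 23 were tested, and 22 rose and 1 fell, with a median log2 difference of 1.03. Summed, the 23 tested genes reached 2541 to 2584 TPM in Pcgf-4KO, 1079 to 1102 TPM in Ring1b-KO and 469 to 478 TPM in WT. Without the genes of chromosomes 11 and 16 the count was 19 higher and 1 lower of 20. The list was drawn up with earlier results on these libraries known, so its direction is not independent evidence.

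Hand1, a factor needed for trophoblast giant cells (chr11:57828705-57832818, minus strand), was at 172, 173 and 164 TPM in Pcgf-4KO and 15.9, 16.5 and 17.0 TPM in Ring1b-KO (3.29 ± 0.06, adjusted p = 1.9e-15), with 2.45 TPM in WT and 154 TPM in Ring1a/b-dKO. Gata3, which with Cdx2 specifies the trophectoderm, averaged 13.3 TPM in Pcgf-4KO and 2.94 TPM in Ring1b-KO (1.86 ± 0.08). Cdx2 itself was at 3.86, 3.46 and 3.63 TPM in Pcgf-4KO and 0.81, 0.84 and 1.40 TPM in Ring1b-KO (1.22 ± 0.11). Ascl2, an imprinted factor of the placenta, differed by 2.01 ± 0.10, and Eomes and Tfap2c by 0.45 each. Tfap2a was the member that fell (-1.23 ± 0.10). The placental hormone and spongiotrophoblast genes Prl3d1, Prl3b1 and Tpbpa stayed at 0.20 TPM or less in all 6 libraries, so the list moved without the markers of differentiated placental cells.

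Keratins of simple epithelium were among the largest rises. Krt18 was at 698, 703 and 709 TPM in Pcgf-4KO and 75.2, 73.7 and 74.7 TPM in Ring1b-KO (3.22 ± 0.06), with 35.9 TPM in WT. Krt8, its pairing partner, differed by 2.96 ± 0.05, Krt19 by 2.97 ± 0.08 and Krt7 by 2.60 ± 0.10. None of these genes overlapped between the lines, but lack of overlap was a condition by which most genes were named. On the higher side it held for 41.6% of all genes tested.

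Of 30 genes of stratified epithelium 22 were tested, and 15 rose, 2 fell and 5 did not pass (median 0.84). The tight-junction gene Cldn4 was at 454, 441 and 438 TPM in Pcgf-4KO and 73.8, 74.3 and 80.2 TPM in Ring1b-KO (2.53 ± 0.05). Perp, a desmosome protein, differed by 2.71 ± 0.07 and desmoplakin (Dsp) by 1.28 ± 0.13. The basal keratin gene Krt14 was lower (-0.87 ± 0.14), and Krt5 and Trp63, which define basal epidermis, were at 0.30 TPM or less in all 6 libraries.

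Annexins, S100 proteins and galectins, calcium- and sugar-binding proteins of the cell membrane and cortex, gave 17 rises, 5 falls and 1 gene not called of 23 tested (median 0.999). Anxa1 was at 135, 132 and 136 TPM in Pcgf-4KO and 7.59, 7.67 and 8.51 TPM in Ring1b-KO (3.93 ± 0.06), where Ring1b-KO was level with the WT mean of 8.04 TPM. S100a6 was at 699, 698 and 688 TPM in Pcgf-4KO and 66.3, 59.8 and 69.4 TPM in Ring1b-KO (3.40 ± 0.08). Anxa3 (3.51 ± 0.08), Lgals3 (2.78 ± 0.08) and Lgals1 (2.74 ± 0.04) rose with them, while Lgals7 (-1.04 ± 0.24) and Lgals9 (-0.42 ± 0.07) fell.

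Other single genes also differed by a wide margin. Id2, an inhibitor of bHLH factors, was at 603, 617 and 608 TPM in Pcgf-4KO and 58.6, 53.2 and 55.7 TPM in Ring1b-KO (3.43 ± 0.06), where WT averaged 52.7 TPM. In the other direction the largest fall after Pcgf6 was that of Mid1, an X-linked ubiquitin ligase gene that crosses the boundary of the pseudoautosomal region in the mouse. It was at 1.28, 1.45 and 1.22 TPM in Pcgf-4KO and 49.8, 56.1 and 58.4 TPM in Ring1b-KO (-4.59 ± 0.11), and also at 1.30 to 1.74 TPM in Ring1a/b-dKO. Nphs1 (-4.29 ± 0.12), Obox6 (-3.78 ± 0.18) and Otx2 (-3.37 ± 0.10), a formative-state and head-patterning factor, were among the other large falls.

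Core pluripotency genes leaned lower in Pcgf-4KO, with 11 of 18 lower, 4 higher and 3 not called (median -0.31). Nanog was at 115, 118 and 119 TPM in Pcgf-4KO and 399, 379 and 382 TPM in Ring1b-KO (-1.71 ± 0.05, adjusted p = 5.7e-13), and WT averaged 108 TPM, so Ring1b-KO stood apart from both. Pou5f1, which codes for Oct4, fell by 0.71 ± 0.04 and Sox2 by 0.29 ± 0.06 on the log2 scale. Tdh, a threonine dehydrogenase of mouse embryonic stem cells, was at 63.8 to 66.0 TPM in Pcgf-4KO and 180 to 182 TPM in Ring1b-KO (-1.46 ± 0.03). Sall4 rose (0.75 ± 0.05), as did Dppa2 (0.37 ± 0.05), which lies on chromosome 16 and turned to -0.13 with the median shift of that chromosome removed.

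Naive pluripotency genes gave 7 rises, 11 falls and 2 genes not called of 20 (median -0.29). Klf4 was at 25.0, 25.7 and 22.3 TPM in Pcgf-4KO and 61.2, 61.7 and 60.9 TPM in Ring1b-KO (-1.30 ± 0.08), with 16.04 TPM in WT. Prdm14 (-1.87 ± 0.11), Tcl1 (-1.94 ± 0.09) and Tbx3 (-0.60 ± 0.20) were lower in Pcgf-4KO as well, Tbx3 no longer past the threshold with a pseudocount of 0.1 TPM at a difference of like size (-0.61, adjusted p = 0.062). Klf2, a related factor, was higher, at 476, 484 and 460 TPM in Pcgf-4KO and 239, 256 and 273 TPM in Ring1b-KO (0.89 ± 0.05), and so were Dppa3 (1.06 ± 0.05) and Zfp42 (0.48 ± 0.04). Formative and primed genes gave 9 rises and 7 falls of 18, and with median ratio scaling 5 rises and 8 falls.

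In Nodal signalling the ligand binds Activin receptors with the co-receptor Tdgf1 (Cripto) and induces its own inhibitors Lefty1 and Lefty2. Of 20 pathway genes tested 8 rose, 8 fell and 4 did not pass, and 4 of the falls but 1 of the rises reached 2-fold. With median ratio scaling 5 rose and 10 fell. Lefty2 (chr1:180893108-180899103, plus strand) was at 21.1, 20.6 and 16.6 TPM in Pcgf-4KO and 394, 399 and 428 TPM in Ring1b-KO (-4.33 ± 0.11, adjusted p = 1.5e-13), with 136 TPM in WT. Lefty1 was at 9.87, 11.3 and 9.44 TPM in Pcgf-4KO and 75.6, 78.2 and 81.1 TPM in Ring1b-KO (-2.83 ± 0.12), with 194 TPM in WT. Tdgf1 was at 158, 156 and 154 TPM in Pcgf-4KO and 955, 944 and 950 TPM in Ring1b-KO (-2.60 ± 0.04).

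The ligand gene Nodal itself did not pass the test, at 41.7, 39.0 and 37.9 TPM in Pcgf-4KO and 40.2, 42.0 and 42.6 TPM in Ring1b-KO (-0.07 ± 0.05). The transducers Smad2 (0.43), Smad3 (0.80 ± 0.09) and Foxh1 (1.12 ± 0.06) rose.

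Imprinted genes, expressed from 1 parental allele, gave 24 rises, 7 falls and 10 genes not called of 41 (median 0.35), or 19 rises and 10 falls with median ratio scaling. The largest falls belonged to the maternally expressed noncoding domain on chromosome 12. Meg3 was at 3.71, 3.14 and 2.11 TPM in Pcgf-4KO and 64.0, 59.9 and 70.0 TPM in Ring1b-KO (-4.06 ± 0.11), with 166 TPM in WT and 135 TPM in Ring1a/b-dKO. Rian (-3.70 ± 0.07) and Mirg (-2.70 ± 0.10) followed it, while Dlk1, the protein-coding gene of the same domain that is expressed from the other allele, rose (0.54 ± 0.09). Both lines lay below WT for Meg3, Pcgf-4KO close to 0.

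H19 and Igf2, neighbours on chromosome 7 that are normally expressed from opposite alleles, both rose. H19 was at 240.8, 251.4 and 244.3 TPM in Pcgf-4KO and 65.6, 67.9 and 71.6 TPM in Ring1b-KO (1.83 ± 0.10), against 4.75 TPM in Ring1a/b-dKO and 0.29 TPM in WT. Igf2, a fetal growth factor gene, was at 438, 445 and 435 TPM in Pcgf-4KO and 77.7, 77.3 and 80.9 TPM in Ring1b-KO (2.47 ± 0.04), against 19.04 TPM in WT. Mest was at 109, 108 and 110 TPM in Pcgf-4KO, 46.5, 46.9 and 45.7 TPM in Ring1b-KO (1.22 ± 0.06) and 76.0 TPM in WT, so the lines stood on either side of WT.

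Genes of DNA methylation changed in both directions (8 higher, 6 lower, 6 not called of 20). Dnmt3l, a cofactor of the de novo methyltransferases, was at 997, 946 and 975 TPM in Pcgf-4KO and 357, 360 and 368 TPM in Ring1b-KO (1.43 ± 0.04). Dnmt3b rose (1.11 ± 0.08) and Dnmt3a fell (-1.34 ± 0.11), at 20.7, 23.2 and 22.3 TPM in Pcgf-4KO and 56.0, 55.5 and 60.2 TPM in Ring1b-KO. The maintenance gene Dnmt1 did not pass the test (-0.12 ± 0.09), and Tet2, which oxidises methylcytosine, fell by 0.93 ± 0.16. With median ratio scaling 6 members rose and 10 fell.

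Genes of the embryonic germ layers, which PRC1 is known to repress in stem cells, moved in both directions. Of 27 endoderm genes tested 9 rose, 13 fell and 5 did not pass (median -0.24). With a filter at 5 TPM 6 rose and 8 fell of 17, and the median was 0.03. The summed level of the 27 tested genes went the other way from their median, at 2490 to 2532 TPM in Pcgf-4KO, 882 to 895 TPM in Ring1b-KO and 537 to 551 TPM in WT, and it includes Krt8, Krt18 and Krt19. Sparc, a matrix gene of parietal endoderm on chromosome 11, was at 937, 933 and 916 TPM in Pcgf-4KO and 365, 368 and 377 TPM in Ring1b-KO (1.32 ± 0.05), while the laminin gene Lama1 was at 8.22, 7.03 and 4.81 TPM in Pcgf-4KO and 25.9, 23.3 and 21.2 TPM in Ring1b-KO (-1.69 ± 0.17). Sox17, a defining factor of endoderm, fell by 0.91 ± 0.18 on the log2 scale.

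Of 23 mesoderm genes 11 rose, 4 fell and 8 did not pass (median 0.25). The heart factor gene Tbx20 was at 11.4, 11.8 and 11.5 TPM in Pcgf-4KO and 5.32, 3.21 and 3.50 TPM in Ring1b-KO (1.35 ± 0.14), and Etv2, a blood vessel factor gene, fell by 0.82 ± 0.16. Of 19 neuroectoderm genes 5 rose and 6 fell, or 4 and 8 with median ratio scaling. The neurofilament gene Nefl (1.37 ± 0.04) and the progenitor gene Nes (1.31 ± 0.07) rose, and Stmn2, which codes for a microtubule regulator of neurons, fell (-1.62 ± 0.05), at 48.1 to 52.6 TPM in Pcgf-4KO and 153 to 164 TPM in Ring1b-KO.

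Ligands of the Wnt, Fgf, Bmp and Hedgehog families gave 17 rises, 8 falls and 9 genes not called of 34 tested (median 0.29). Wnt7b was at 37.5, 35.8 and 34.2 TPM in Pcgf-4KO and 4.42, 4.41 and 4.74 TPM in Ring1b-KO (2.74 ± 0.07), with 1.79 TPM in WT. Bmp4, a ligand needed for mesoderm and germ cells, was at 45.49, 60.32 and 50.03 TPM in Pcgf-4KO and 24.1, 18.6 and 23.0 TPM in Ring1b-KO (1.21 ± 0.15), and Bmp8b rose with it (2.02 ± 0.11). Fgf4, a ligand that stem cells make themselves, fell by 0.93 ± 0.06. No library of one line overlapped those of the other for these ligands, but most genes were named on that condition. It held for 41.6% of all genes tested on the higher side and 24.9% on the lower.

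Interferon-stimulated genes gave 7 rises and 5 falls of 19 (median -0.01), near the shares over all genes (37.4% higher and 21.5% lower). With median ratio scaling 5 rose and 5 fell, so the list as a whole showed no direction. The antigen transporter gene Tap1 (1.54 ± 0.18), B2m (0.82 ± 0.06) and H2-D1 (0.77 ± 0.07), which serve antigen presentation, rose, and the interferon signal transducer Stat2 fell (-0.94 ± 0.11). Of 5 Ifitm genes, which code for membrane proteins that limit virus entry, 4 fell and 1 did not pass. Ifitm1 was at 34.2, 32.9 and 28.4 TPM in Pcgf-4KO and 102, 96.5 and 103 TPM in Ring1b-KO (-1.63 ± 0.09), with 760 TPM in WT, so both lines lay far below WT.

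CDK inhibitors and targets of p53 stood higher in Pcgf-4KO. Of 8 inhibitor genes 6 rose and 2 did not pass, and of 28 p53 targets 17 rose, 4 fell and 7 did not pass (median 0.46). With median ratio scaling 4 inhibitor genes rose and 0 fell, and 15 p53 targets rose and 5 fell. Cdkn1a, the p21 gene, was at 110, 112 and 111 TPM in Pcgf-4KO and 45.9, 45.2 and 48.1 TPM in Ring1b-KO (1.24 ± 0.04), with 26.3 TPM in WT. Mdm2, the p53 ubiquitin ligase, differed by 1.45 ± 0.07 and Plk2 by 1.96 ± 0.06. The Polycomb target Cdkn2a was at 56.5, 62.9 and 57.5 TPM in Pcgf-4KO and 52.9, 46.9 and 51.8 TPM in Ring1b-KO (0.22 ± 0.08, adjusted p = 0.031), and its difference dropped to 0.05 and was no longer called with median ratio scaling. Without Pcgf-4KO replicate 2 or Ring1b-KO replicate 2 the Cdkn2a call was lost too (0.17 in both cases). The p53 targets Ei24 (-1.17 ± 0.05) and Pmaip1 (-0.59 ± 0.06) fell.

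Immediate early genes, which respond within minutes to growth factors or stress, moved together: 18 of 19 tested rose and 1 did not pass, with a median log2 difference of 1.37. Jun was at 35.5, 35.4 and 35.8 TPM in Pcgf-4KO and 5.17, 5.20 and 5.29 TPM in Ring1b-KO (2.56 ± 0.08), with 3.67 TPM in WT. Fos differed by 2.04 ± 0.12, Klf6 by 2.71 ± 0.08 and Ccn1 by 2.73 ± 0.05. Summed, the 19 tested genes were at 814 to 825 TPM in Pcgf-4KO, 288 to 302 TPM in Ring1b-KO and 304 to 318 TPM in WT, so Ring1b-KO was near WT. These genes also respond to handling, and the labels give no harvest day, so a difference in harvest cannot be told apart from one of genotype.

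Genes of growth and metabolism leaned lower in Pcgf-4KO. Of 25 glycolysis and hypoxia genes 19 fell, 3 rose and 3 did not pass (median -0.48). Eno1, a glycolytic enzyme gene, was at 728, 719 and 718 TPM in Pcgf-4KO and 1553, 1553 and 1576 TPM in Ring1b-KO (-1.11 ± 0.03), and Pfkp (-1.94 ± 0.07) and Pdk1 (-1.27 ± 0.10) fell further, while the glucose transporter gene Slc2a1 rose (0.86 ± 0.05). Of 21 cholesterol synthesis genes 12 fell and 3 rose, though the 3 were no longer called with median ratio scaling, under which 17 fell, and of 30 replication and proliferation genes 20 fell and 5 rose. Pcna, the polymerase clamp, was at 195, 191 and 198 TPM in Pcgf-4KO and 301, 280 and 292 TPM in Ring1b-KO (-0.58 ± 0.04).

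Integrated stress response genes moved in both directions, with 6 rises and 10 falls of 19. The transcription factor gene Ddit3 rose (1.72 ± 0.13), while the biosynthetic genes Mthfd2 (-1.59 ± 0.04) and Psph (-1.62 ± 0.13) fell. Of 76 cytosolic ribosomal protein genes 57 fell, 3 rose and 16 did not pass (median -0.27). The 3 that rose, Rpl35a (0.24 ± 0.05), Rpl24 (0.20 ± 0.05) and Rpl19 (0.14 ± 0.05), lie on chromosomes 16, 16 and 11, and all turned negative once the median shifts of the chromosomes were removed. With median ratio scaling none of the 3 stayed called, and the Rpl19 call was also lost without Pcgf-4KO replicate 1 or 2 or Ring1b-KO replicate 1 or 2 (0.12 to 0.14).

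**Figure D4:**
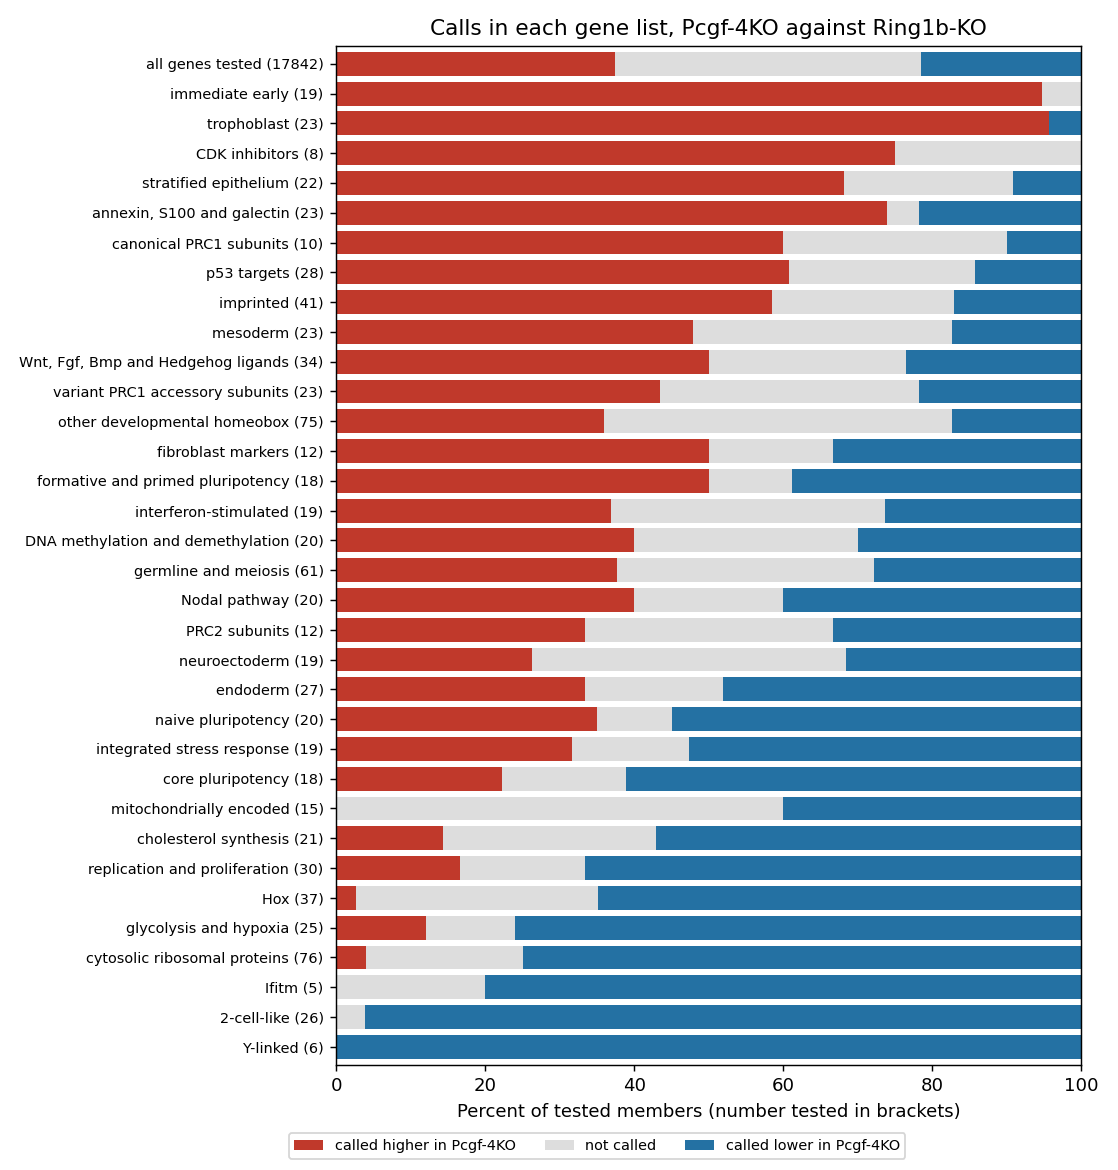
Percent of the tested members of each gene list called higher (red), not called (grey) or called lower (blue) in Pcgf-4KO against Ring1b-KO, with all genes tested in the top bar and the number tested in brackets. Immediate early and trophoblast genes are nearly all higher, and 2-cell-like, Y-linked and ribosomal protein genes mostly lower, against 37.4% higher and 21.5% lower over all genes.

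Whole chromosomes also differed between the lines. Among genes averaging at least 10 TPM over the 18 libraries, the median log2 difference was 0.67 on chromosome 16 (294 genes, 83.0% called higher) and 0.35 on chromosome 11 (779 genes, 65.9% called higher), while on the other autosomes and the X it lay between 0.06 and 0.21. In stretches of 20 Mb it was 0.39 to 0.77 along chromosome 16, where the lowest stretch held 12 genes, and 0.20 to 0.49 along chromosome 11. Set against the WT mean, the chromosome 16 median was 0.49, 0.50 and 0.50 in the Pcgf-4KO libraries and -0.19, -0.17 and -0.18 in the Ring1b-KO libraries, and that of chromosome 11 was 0.27, 0.30 and 0.27 in Pcgf-4KO and -0.08, -0.07 and -0.06 in Ring1b-KO. The libraries of a line were alike, and on both chromosomes the lines lay on opposite sides of WT. Pcgf-4KO lay above WT on every autosome and the X. Its chromosome 12 median was 0.29, 0.33 and 0.29, so its chromosome 11 did not stand out. Ring1b-KO lay below WT on chromosomes 11 and 16 only. The chromosome 16 median was also above WT in Ring1a-KO (0.25, 0.13 and 0.27), Ring1a/b-dKO (0.46, 0.46 and 0.47) and Pcgf-6KO (0.40, 0.49 and 0.57). DNA copy number was not measured, and the part of these shifts in the results of single genes was not tested beyond the values without them.

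**Figure D5:**
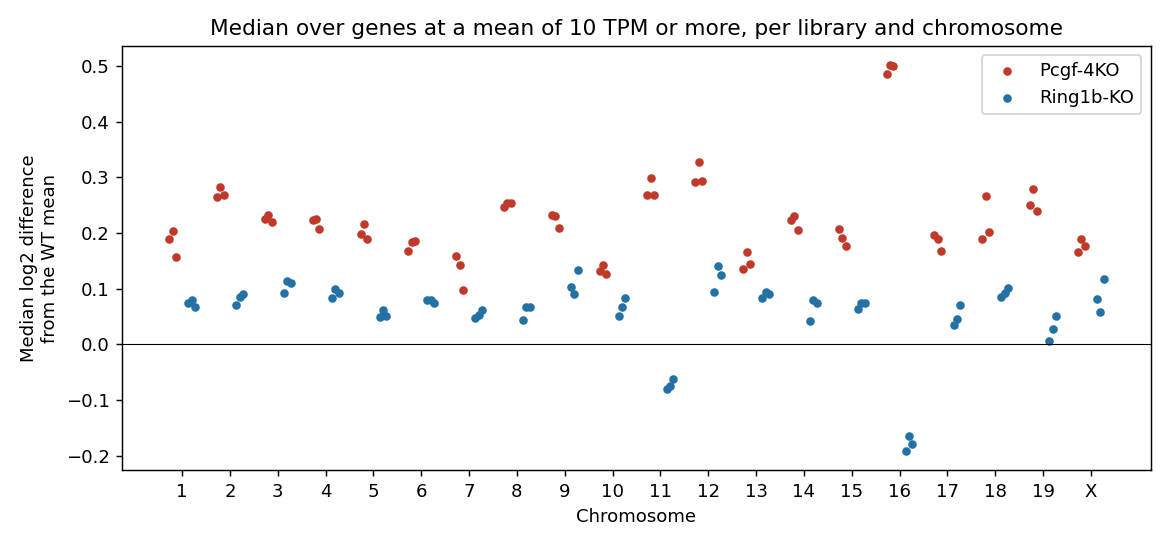
Median log2 difference from the WT mean over genes averaging at least 10 TPM, for each chromosome (horizontal axis), in each of 3 Pcgf-4KO (red) and 3 Ring1b-KO (blue) libraries. Chromosome 16 lies near 0.50 in Pcgf-4KO and near -0.18 in Ring1b-KO, the widest gap, and chromosome 11 also lies on opposite sides of 0.

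The Y chromosome differed too. All 6 tested Y-linked genes fell, and their sum was 0.10 to 0.13 TPM in Pcgf-4KO, 10.1 to 10.8 TPM in Ring1b-KO and 70.5 to 76.8 TPM in WT. Ddx3y was at 0.05, 0 and 0.02 TPM in Pcgf-4KO, while in Ring1b-KO it averaged 3.68 TPM. Y-linked RNA was thus near 0 in Pcgf-4KO and reduced but present in Ring1b-KO. Mid1, named above, was low in Pcgf-4KO together with these genes, and the part of the Y chromosome in its difference was not tested.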

How the data were processed

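The authors deposited 1 table of TPM values for 56551 genes in 18 libraries, each summing to 1000000 within rounding, and TPM keeps no read depth. Its 6 columns of group means were not used. Per the submitters' processing notes TopHat2 2.1.1, RSEM, edgeR and the build GRCm38.p5 were named; which step each performed is not stated there. A GENCODE annotation of GRCm38 supplied symbols and positions (55227 genes matched) and promoters from RefSeq GRCm38.p6.

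Values were taken as log2(TPM + 1) of the deposited TPM, which understates changes of low genes. Genes reaching 1 TPM in 3 or more libraries were fitted with limma 3.58.1 in R 4.3.3, with 1 mean for each of 6 groups, 12 residual degrees of freedom and a trended empirical Bayes prior, and adjusted over all 17842 genes. The script was tested on simulated data. The genes named are the Ring1 and Pcgf genes, the 12 largest rises and 12 largest falls among called genes at a mean of 5 TPM or more whose libraries do not overlap, as many as 4 of each per list, and a short fixed set; members singled out beyond it (such as Gata3, Dsp, Krt14, Nodal, Smad2, Dlk1, Dnmt1, Hoxb9 and Lgals1) were chosen after their values were seen. Members, lists and tests were chosen with earlier results of these data known. Alternatives were another pseudocount, 3 filters, 3 scalings, a fit on the 6 libraries, no trend, the replicate block and each library left out, with removal of chromosome shifts added after seeing the data. Some results are not reported here.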

Additional observations from a re-analysis of the deposited data

How the results depend on the processing

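The count of called genes was 10508 as reported and ran from 9537 to 9746 when 1 library was left out, 6136 to 6296 of them higher and 3390 to 3567 lower, with 1123 to 1174 higher and 772 to 818 lower at 2-fold or more. It was 10688 when only the 6 libraries were fitted. Same-numbered libraries of the lines did not deviate together (correlations -0.03 to -0.01), so the numbers do not pair them, and the replicate block gave 10389 calls. A pseudocount of 0.1 TPM raised the counts at 2-fold or more to 1835 higher and 1333 lower, and a filter at 5 TPM cut the lower count to 525 of 12762 genes, since fewer low genes were then tested. Scaling changed the balance of directions: 63.5% of the calls were higher as reported, 48.7% with median ratios (median log2 shift -0.02 in place of 0.11), 52.6% with quantile normalization and 59.1% with scaling to nuclear protein-coding genes. Rpl19 turned to -0.0285 with median ratios. With chromosome shifts removed, a setting chosen after seeing the data, Dppa2 turned to -0.13, Rpl35a to -0.25, Rpl24 to -0.30 and Rpl19 to -0.0233. Of 227 named genes 205 kept direction and side of the threshold in every setting that tested them (4060 pairs of gene and setting, since 2 settings left some genes out). Most of them were picked for large called differences without overlap, so that count does not measure how stable genes at large were. Of the 10508 calls over all genes, 8904 were called in the same direction with median ratios and 9039 with quantile normalization. TPM hides depth, so differences of genes at a few TPM rest on the spread between libraries, 3 a group, and not on read counts.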

Other observations

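Rhox and Xlr genes, X-linked families chosen after their values were seen, were mostly higher in Pcgf-4KO among those tested. Of 16 Rhox genes tested 12 rose and 4 did not pass, and of 10 Xlr genes 9 rose and 1 did not pass. Of the 16 Rhox genes, 3 passed the filter on low values only through Pcgf-4KO libraries and 1 only through Ring1b-KO libraries, so their count is no measure of the whole family of 42. Rhox13 was at 130, 131 and 126 TPM in Pcgf-4KO and 18.69, 16.72 and 18.95 TPM in Ring1b-KO (log2 difference 2.76 ± 0.14), with 0.42 TPM in WT. Rhox6 was at 188, 187 and 189 TPM in Pcgf-4KO and 34.0, 31.4 and 35.2 TPM in Ring1b-KO (2.45 ± 0.07). Xlr5b was at 42.1, 42.7 and 42.6 TPM in Pcgf-4KO and 15.3, 11.6 and 11.4 TPM in Ring1b-KO (1.67 ± 0.11), against 0.08 TPM in Ring1a/b-dKO and 0.02 TPM in WT. Xlr3a differed by -0.28 ± 0.13 and did not pass the test. Many members are near-identical copies, so how reads were divided among them is uncertain. On the X chromosome 11.7% of the tested genes were higher at 2-fold or more, against 6.41% of all genes tested.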
